A study of Mus musculus with 18 samples.

Results

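The genes described here are those that release fucose from glycoproteins and those that make GDP-fucose and carry it to a place where it is used. They were taken by symbol from the deposited table: Fuca1, Fuca2, Fuk (also called Fcsk), Fpgt, Gmds, Tsta3 (also called Gfus) and Slc35c1, which are 7 of the 48440 genes in the table. All 7 passed the filter on low counts that left 18808 genes for testing. Poly(A)-selected RNA of mouse brain had been sequenced in 18 libraries, 6 in each of 3 groups. The groups were 5xFAD mice on a fucose diet, 5xFAD mice on a control diet and WT mice on a control diet, each after 1 month of the diet. The 5xFAD line is a transgenic model of Alzheimer's disease: its human transgenes, with familial mutations, are driven in neurons by elements of the Thy1 gene. WT mice on the fucose diet are not among the groups analysed here. The labels give the tissue only as brain, without region, sex, age or batch, and do not say that each library came from a separate animal, so p-values measure the spread between libraries.

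Fucose is a sugar placed at the ends and at the core of glycoprotein chains, and in the brain it is found on synaptic glycoproteins. Cells obtain the activated form, GDP-fucose, by a de novo route from GDP-mannose and by a salvage route from free fucose, which comes from the diet or from glycoproteins broken down in lysosomes. A transporter then brings GDP-fucose into the Golgi, where many fucosyltransferases use it. Loss of the lysosomal fucosidase FUCA1 in humans causes fucosidosis, a storage disease that affects the brain.

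Depth ran from 31.45 to 44.23 M reads per library, with a median of 38.93 M, and the 7 genes had between 251 (Gmds) and 2951 (Fuca1) reads in a library. The values are normalized counts, which are reads divided by a size factor of the library. Markers of neurons (8 of 8), oligodendrocytes (7 of 7) and astrocytes (8 of 8) were all tested and present in every group. The summed level of 5 liver markers was at most 65.5, 79.0 and 84.6 normalized counts in the 5xFAD fucose, 5xFAD control and WT groups. Xist, an RNA made by the inactive X chromosome, was low in 1 library of each group: 5xFAD fucose replicate 5, 5xFAD control replicate 5 and WT replicate 4. Leaving these 3 libraries out changed no call among the 7 genes.

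The 7 genes lie on 7 chromosomes (mm10). Fuca1 (ENSMUSG00000028673.10, chromosome 4, 135920735 to 135940311, plus strand) encodes the lysosomal alpha-L-fucosidase, which cuts fucose from glycoproteins and glycolipids. Fuca2 (ENSMUSG00000019810.15, chromosome 10, 13499540 to 13519035, plus strand) encodes a secreted alpha-L-fucosidase. Fuk (ENSMUSG00000033703.8, chromosome 8, 110882463 to 110902459, minus strand) encodes fucokinase, the first enzyme of salvage, and Fpgt (ENSMUSG00000053870.7, chromosome 3, 155084918 to 155093403, minus strand) the enzyme that turns fucose-1-phosphate into GDP-fucose. Gmds (ENSMUSG00000038372.13, chromosome 13, 31819579 to 32338712, minus strand) encodes GDP-mannose 4,6-dehydratase, the first step of the de novo route. Tsta3 (ENSMUSG00000022570.5, chromosome 15, 75924684 to 75929730, minus strand) encodes GDP-L-fucose synthase, the next step of that route. Slc35c1 (ENSMUSG00000049922.8, chromosome 2, 92452764 to 92460538, minus strand) encodes the GDP-fucose transporter of the Golgi. Fpgt shares 81 exon bases (1.29% of its exons) with Gm26456 on the opposite strand in GENCODE M21, and the other 6 share none.

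The upstream windows of the fucosidase genes are shown because Fuca1 was the only one of the 7 genes whose level passed the test, while Fuca2, which encodes an enzyme of the same reaction, did not. Each is the 250 bases before a RefSeq start (GRCm38.p6), in the direction of the gene: chr4:135920476-135920725 on the plus strand for Fuca1 and chr10:13500778-13501027 on the plus strand for Fuca2. The Fuca2 window lies inside the gene span that the deposited table gives, after its first base. Capitals mark matches to GGCGGG or CCAAT on either strand.
Fuca1: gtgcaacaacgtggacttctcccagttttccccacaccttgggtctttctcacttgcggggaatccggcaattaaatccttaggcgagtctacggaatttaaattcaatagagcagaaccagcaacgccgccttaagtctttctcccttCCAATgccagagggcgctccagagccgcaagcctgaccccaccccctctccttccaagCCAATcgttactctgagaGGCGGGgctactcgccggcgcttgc
Fuca2: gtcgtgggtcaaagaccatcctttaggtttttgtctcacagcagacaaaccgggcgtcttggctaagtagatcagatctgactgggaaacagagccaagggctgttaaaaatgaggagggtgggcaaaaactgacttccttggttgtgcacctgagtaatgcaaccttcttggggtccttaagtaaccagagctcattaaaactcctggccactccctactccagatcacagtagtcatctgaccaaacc
CACGTG was searched on both strands, as was the longer TCACGTG, which contains it, and likewise GAGGAAG. The motifs GGCGGG and CCAAT were added after the sequences had been seen. The Fuca1 window held 1 match to GGCGGG and 2 to CCAAT and none to the other 3 motifs. The Fuca2 window held no match to any of the 5. Among 32851 mouse windows of the same length, 6.02% held CACGTG, 3.13% TCACGTG, 10.6% GAGGAAG, 32.5% GGCGGG and 33.8% CCAAT. GC content was 55.6% in the Fuca1 window and 48.4% in the Fuca2 window, against a median of 52.4% over all windows. RefSeq windows were matched for 4 of the 7 genes. The Gmds window, with 78.4% GC, held 3 matches to GGCGGG, and the 2 Slc35c1 windows held none of the 5 motifs. Fpgt, Tsta3 and Fuk had no entry.

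Per kb of merged exon, the order of levels over the 18 libraries was Fuca1 (699 normalized counts per kb), Tsta3 (421), Slc35c1 (262), Fuca2 (261), Fuk (151), Gmds (114) and Fpgt (97.3). Fuca1 was above Tsta3, Tsta3 above Slc35c1 and Fuca2 above Fuk in 18 of 18 libraries each. Slc35c1 and Fuca2 were not separated, with Slc35c1 above Fuca2 in 11 of 18 libraries. Fuk was above Gmds in 16 of 18 libraries, and Gmds above Fpgt in 13 of 18. In this order the de novo enzymes held both a high and a low place, while both salvage enzymes were among the 3 lowest. Merged exons were 6.255 kb for Fuk, 6.282 kb for Fpgt and 6.161 kb for Fuca2. They were shorter for Fuca1 (3.276 kb), Tsta3 (2.906 kb), Slc35c1 (3.275 kb) and Gmds (3.351 kb). The order depends on these lengths. Without division by length the means were 2290 normalized counts for Fuca1, 1609 for Fuca2 and 1224 for Tsta3. Those of Fuk, Slc35c1, Fpgt and Gmds were 946, 856, 611 and 381. Fuca2 then stood above both Tsta3 and Slc35c1.

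**Figure D1:**
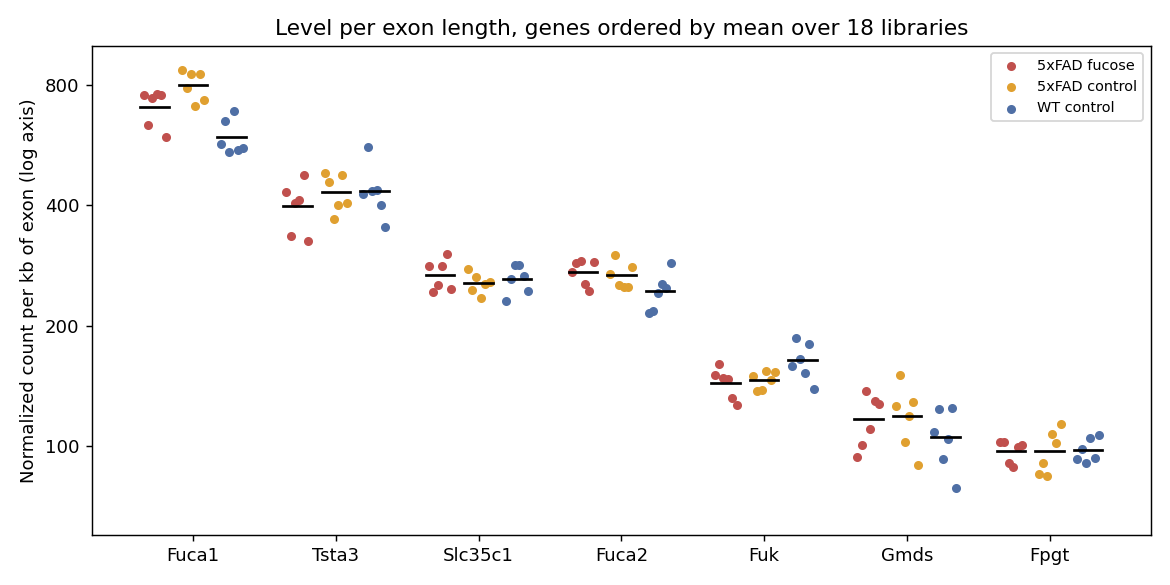
Normalized counts per kb of exon (log axis) of the 7 genes in 18 libraries, with genes ordered by their mean and points coloured by group (5xFAD fucose, 5xFAD control, WT control, left to right within a gene; bars are group means). Fuca1 stands highest in every library, and the ranges of Slc35c1 and Fuca2 overlap.

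Fuca1 made up 72.0 ± 3.32% of the summed Fuca1 and Fuca2 level per kb in 5xFAD mice on fucose, 74.9 ± 2.31% in 5xFAD mice on control diet and 70.7 ± 3.33% in WT mice (SD, n = 6 each). This share rests on merged exons of 3.276 kb for Fuca1 and 6.161 kb for Fuca2. Their means over 18 libraries without division by length, 2290 and 1609 normalized counts, were closer to each other. Within the de novo route, Tsta3 was 3.47 ± 0.704 times Gmds per kb in 5xFAD mice on fucose, 3.68 ± 0.497 times in 5xFAD mice on control diet and 4.17 ± 0.530 times in WT mice. Within salvage, Fuk was 1.49 ± 0.164, 1.52 ± 0.151 and 1.69 ± 0.252 times Fpgt per kb in the 5xFAD fucose, 5xFAD control and WT groups. For each of these ratios the ranges of the 3 groups overlapped. Per kb, the geometric mean of the salvage pair over that of the de novo pair was 0.559 ± 0.0866 in 5xFAD mice on fucose. This ratio was 0.536 ± 0.0979 in 5xFAD mice on control diet and 0.599 ± 0.0714 in WT mice, again with overlapping ranges. Merged exons are longer for the salvage pair, so its size depends on the lengths used. Without division by length, the means of Fuk (946) and Fpgt (611) both lay between those of Tsta3 (1224) and Gmds (381). The ratio therefore does not rank the routes by transcript level. Fuca1 over the transporter gene Slc35c1 was 2.64 ± 0.184 per kb in 5xFAD mice on fucose, 3.13 ± 0.172 in 5xFAD mice on control diet and 2.27 ± 0.238 in WT mice. That ratio ran from 2.86 to 3.34 in 5xFAD mice on control diet, wholly above the 1.91 to 2.48 of WT mice, while the fucose group, at 2.40 to 2.93, overlapped both.

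The first comparison asks how the 5xFAD genotype on control diet differed from WT on the same diet. Fuca1, the lysosomal fucosidase, was higher in 5xFAD brain, and the other 6 genes did not pass the test. In 5xFAD mice on control diet the lowest, median and highest Fuca1 levels were 2315, 2679 and 2860 normalized counts, against 1775, 1841 and 2251 in WT mice. Every 5xFAD library lay above every WT library, although the lowest 5xFAD and the highest WT library were close. The means were 2622 ± 225 in 5xFAD and 1938 ± 199 in WT mice (SD, n = 6 each), a 1.35-fold difference. The log2 fold change was 0.44 ± 0.084 SE with a 95% interval of 0.26 to 0.61 (limma, adjusted p = 0.00248 over 18808 genes), which ranked 208 by p-value. A two-sided exact permutation test of 6 against 6 libraries gave p = 0.00216, the smallest it can give. It was 1 of 21 such tests, over 7 genes and 3 comparisons, and these p-values are not adjusted. Thus 1 of the 7 genes was called higher and 0 lower, where limma called 1.97% of all tested genes higher and 0.165% lower. The number called lower, 31, ran from 18 (without 5xFAD control replicate 1 or 5) to 52 (without WT replicate 4) with 1 library left out. In 1.8% of all genes every 5xFAD library lay above every WT library. In bulk tissue, fewer cells of a type and less RNA per cell cannot be told apart, and the same holds for more cells and more RNA.

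**Figure D2:**
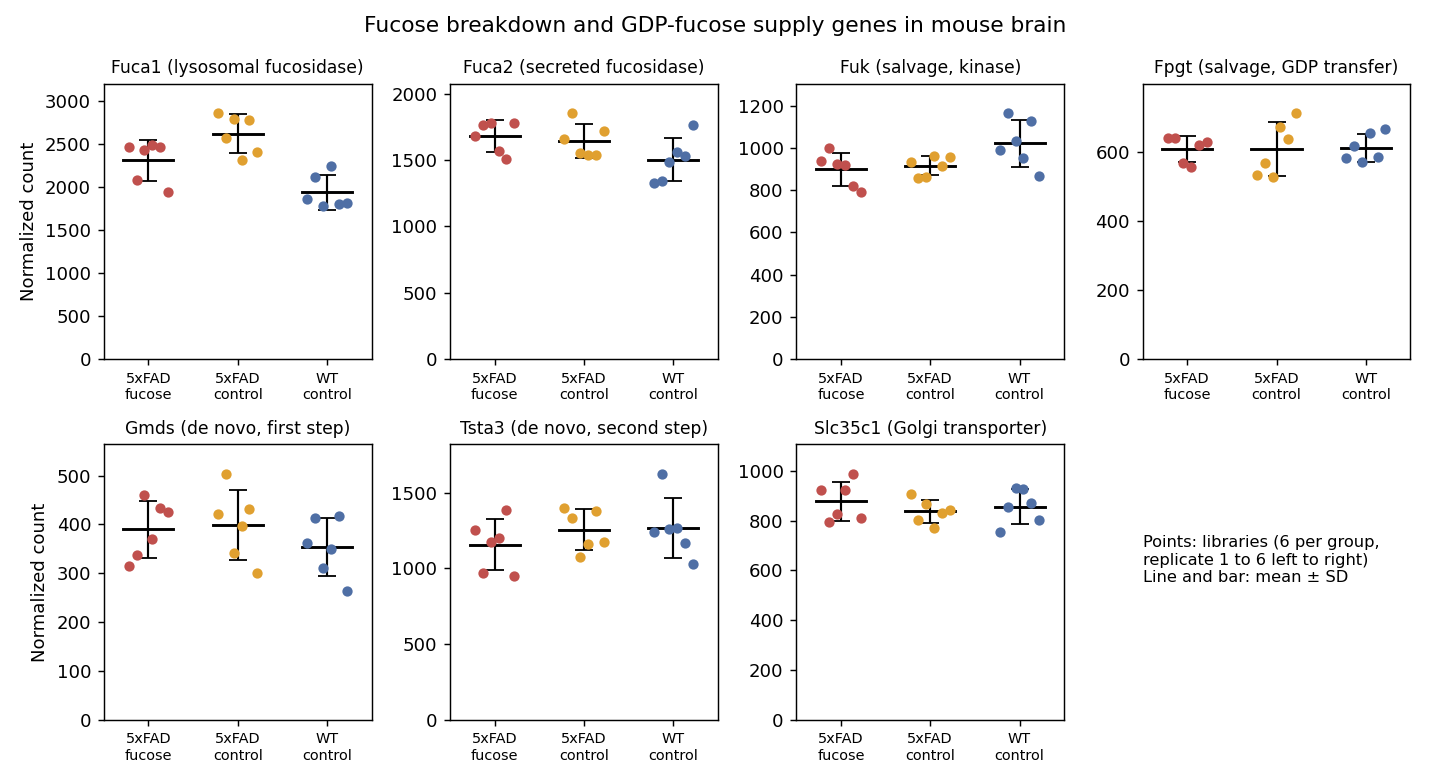
Normalized counts (linear axes from 0) of the 7 genes in each library, in panels by role, with 5xFAD fucose, 5xFAD control and WT control from left to right; lines and bars are the mean and SD of 6 libraries. Fuca1 in 5xFAD mice on control diet, 2315 to 2860, lies above WT, 1775 to 2251, and the other panels overlap between all groups.

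Markers of glial cells were also higher in the 5xFAD groups. The summed level of 9 microglia markers ran from 16782 to 25999 normalized counts in 5xFAD mice on fucose, 20198 to 22605 in 5xFAD mice on control diet and 10986 to 13408 in WT mice, with no marker at 0 in a group. 6 of these 9 passed the limma test as higher in 5xFAD than in WT mice on control diet, with a median log2 fold change of 0.90 over the list, against -0.0078 over all tested genes. Of 10 markers of disease-associated microglia 9 were called higher, and their summed level ran from 14730 to 30339 in 5xFAD mice on fucose, 17855 to 25856 in 5xFAD mice on control diet and 6501 to 7358 in WT mice. All 6 reactive astrocyte markers were called higher. None of the markers of neurons (8), oligodendrocytes (7), their precursors (6), resting astrocytes (8), endothelium (6) or choroid plexus (6) was called in this comparison.

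Across the 18 libraries, with each value taken as a deviation from its group mean, Fuca1 was set against those marker sums. For the microglia sum r was -0.12 (100000 permutations, p = 0.699, adjusted p = 0.699 over 3 relations) and rho -0.053 (permutation p = 0.849, adjusted p = 0.849). Without the 2 libraries whose microglia sum lay farthest from the median of all 18 libraries, r was -0.18. For each sum such libraries were chosen before group means were taken off, so they need not be the extremes of the relation. For the disease-associated microglia sum r was 0.14 (permutation p = 0.630, adjusted p = 0.699) and rho 0.14 (p = 0.602, adjusted p = 0.849), with r at 0.12 without the 2 farthest. For the reactive astrocyte sum r was 0.37 (permutation p = 0.171, adjusted p = 0.513) and rho 0.42 (p = 0.107, adjusted p = 0.321), with r at 0.27 without the 2 farthest. The sums add unscaled normalized counts, so the most abundant markers weigh most. The reactive astrocyte sum was mostly Gfap, with a median of 75848 over the 18 libraries, against 6640 for Serpina3n, the next highest. None of the 3 relations passed the threshold, and the part of cell composition in the Fuca1 difference between the groups was not tested.

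Fuca2, the secreted fucosidase, had a lowest, median and highest level of 1539, 1608 and 1853 normalized counts in 5xFAD mice on control diet, against 1325, 1509.5 and 1766 in WT mice. All 6 5xFAD libraries exceeded the WT median, but only 1 exceeded the highest WT library. The log2 fold change was 0.13 ± 0.080 SE (limma, adjusted p = 0.558), with an interval of -0.031 to 0.30.

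Fuk, the fucokinase of the salvage route, lay the other way. Its lowest, median and highest levels were 859.8, 925 and 964 normalized counts in 5xFAD mice on control diet, against 868, 1012 and 1166 in WT mice. No 5xFAD library reached the WT median, and 2 of 6 were below the lowest WT library. The log2 fold change of -0.15 ± 0.085 SE was not called (limma, adjusted p = 0.522). Fpgt, the other salvage enzyme, averaged 609.8 ± 77.2 normalized counts in 5xFAD and 614 ± 40.6 in WT mice (SD, n = 6 each). Its log2 fold change was -0.016 (adjusted p = 0.970), with an interval of -0.21 to 0.18.

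Gmds, the first de novo enzyme, varied most between libraries relative to its mean. Its lowest, median and highest levels were 299.7, 409.5 and 503 normalized counts in 5xFAD mice on control diet, against 263, 356 and 417 in WT mice. The highest WT library was exceeded by 3 of 6 5xFAD libraries, but the log2 fold change of 0.18 ± 0.14 SE was not called (limma, adjusted p = 0.703). Its coefficient of variation was 17.9% in 5xFAD mice on control diet and 16.8% in WT mice, where counting alone gives 4.95% and 5.36%. Tsta3, the next de novo enzyme, averaged 1254 ± 134 normalized counts in 5xFAD and 1264 ± 198 in WT mice, a log2 fold change of -0.0038 (adjusted p = 0.993). The transporter gene Slc35c1 averaged 836 ± 47.6 in 5xFAD and 856 ± 69.3 in WT mice, a log2 fold change of -0.032 (adjusted p = 0.929). The median log2 fold change over the 7 genes was -0.0038.

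The second comparison asks what the fucose diet changed in 5xFAD mice. None of the 7 genes was called in either direction by limma, edgeR, DESeq2 or voom, and 1 of 7, Fuca1, had an unadjusted p under 0.05 by each of them. The background was 0%: limma called 0 of 18808 genes, 5.34% of them had an unadjusted p under 0.05, and edgeR, DESeq2 and voom also called 0. The number with an unadjusted p under 0.05, 1005, was 560 without 5xFAD control replicate 5, 581 without 5xFAD fucose replicate 2 and 1510 without 5xFAD fucose replicate 4.

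Fuca1 had a lowest, median and highest level of 1943, 2445 and 2491 normalized counts in 5xFAD mice on fucose, against 2315, 2679 and 2860 in 5xFAD mice on control diet. No fucose library reached the control-diet median, and 2 of 6, replicates 2 and 6, lay below the lowest control-diet library. The means were 2311 ± 237 on fucose and 2622 ± 225 on control diet (SD, n = 6 each). The log2 fold change was -0.18 ± 0.084 SE with an interval of -0.36 to -0.010 (limma, p = 0.0389, adjusted p = 0.822), and a two-sided exact permutation test of 6 against 6 libraries gave p = 0.0541. The difference therefore did not pass the test over all genes. This comparison and the first use the same 5xFAD control libraries, so their Fuca1 values are not independent.

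**Figure D3:**
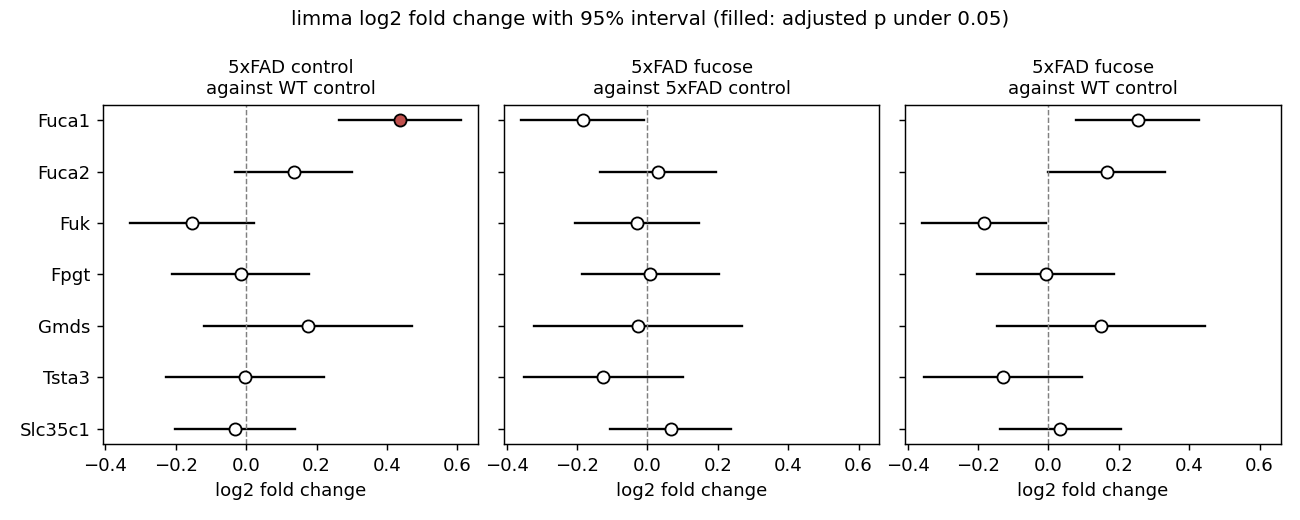
limma log2 fold changes with 95% intervals of the 7 genes in 3 comparisons, a filled point marking an adjusted p under 0.05. The filled point is Fuca1 in 5xFAD against WT on control diet (0.44), while Fuca1 stands at -0.18 for fucose against control diet and at 0.25 for 5xFAD on fucose against WT, both open.

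Fuca2 averaged 1679 ± 120.1 normalized counts on fucose and 1645 ± 126 on control diet (SD, n = 6 each), a log2 fold change of 0.030 ± 0.080 SE (limma, adjusted p = 0.955). The salvage genes, whose enzymes turn free fucose into GDP-fucose by way of fucose-1-phosphate, differed little in mean level. Fuk averaged 899.8 ± 78.2 on fucose and 916 ± 45.2 on control diet, a log2 fold change of -0.028 with an interval of -0.20 to 0.15 (adjusted p = 0.960). Fpgt averaged 610.5 ± 37.7 on fucose and 609.8 ± 77.2 on control diet, a log2 fold change of 0.0087 with an interval of -0.19 to 0.20 (adjusted p = 0.987). For both salvage genes the groups overlapped.

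Of the de novo genes, Tsta3 was the farther from 0. Its lowest, median and highest levels were 947, 1187 and 1386 normalized counts on fucose, against 1074, 1254 and 1400.1 on control diet. 1 of 6 fucose libraries lay above the control-diet median, and 2 lay below the lowest control-diet library. Its log2 fold change was -0.12 ± 0.11 SE (limma, adjusted p = 0.851). Gmds averaged 390.2 ± 58.2 on fucose and 399 ± 71.5 on control diet, a log2 fold change of -0.027 ± 0.14 SE whose interval, -0.32 to 0.27, was the widest of the 7. Slc35c1 averaged 877 ± 78.0 on fucose and 836 ± 47.6 on control diet, with 3 of 6 fucose libraries above the highest control-diet library and a log2 fold change of 0.066 ± 0.083 SE (adjusted p = 0.902). All 7 intervals lay within 1.5-fold in either direction, as did those of 61.3% of all tested genes. The median log2 fold change over the 7 genes was -0.027, against -0.0043 over all tested genes.

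In 5xFAD mice on fucose against WT mice on control diet, which differ in both genotype and diet, 0 of the 7 genes were called by limma, edgeR, DESeq2 or voom. limma called 1.91% of all tested genes higher and 0.0904% lower. The number called lower, 17, ran from 5 without 5xFAD fucose replicate 2 to 75 without 5xFAD fucose replicate 5. An unadjusted p under 0.05 was reached by 2 of 7 genes in limma, DESeq2 and voom and by 3 in edgeR, beside 10.9% of all tested genes in limma. Fuca1 had 1943, 2445 and 2491 normalized counts as its lowest, median and highest level in 5xFAD mice on fucose, against 1775, 1841 and 2251 in WT mice. All 6 fucose libraries lay above the WT median and 4 of 6 above the highest WT library. Its log2 fold change was 0.25 ± 0.084 SE (limma, p = 0.00614, adjusted p = 0.173), with p = 0.0216 in a two-sided exact permutation test of 6 against 6 libraries. Fuk had 791, 923 and 1000.4 normalized counts in 5xFAD mice on fucose, against 868, 1012 and 1166 in WT mice, with 0 of 6 fucose libraries above the WT median. Its log2 fold change was -0.18 ± 0.085 SE (limma, adjusted p = 0.441), and a two-sided exact permutation test of 6 against 6 libraries gave p = 0.0563. Fuca2 had a log2 fold change of 0.17 (adjusted p = 0.461), Gmds of 0.15 (adjusted p = 0.786), Tsta3 of -0.13 (adjusted p = 0.747), Slc35c1 of 0.034 (adjusted p = 0.939) and Fpgt of -0.0070 (adjusted p = 0.990). This comparison shares its libraries with the other two.

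Within groups the relations among the 7 genes from library to library were of both signs. Taken as deviations from group means over the 18 libraries, the highest Pearson r of log2 levels was 0.67 for Fuca1 with Tsta3, followed by 0.60 for Fuca1 with Slc35c1, 0.51 for Tsta3 with Slc35c1 and 0.48 for the de novo pair Gmds and Tsta3. The fucosidase pair Fuca1 and Fuca2 had r = -0.32, the salvage pair Fuk and Fpgt -0.013, and the lowest value was -0.51 for Fuca2 with Tsta3. All such values share the libraries' depth and composition and are given as descriptions. By the same measure, among 14589 other genes, Fuca1 was most like Arl8a (0.88), Nudt14 (0.86), Bckdk (0.86), Grhpr (0.86) and Iscu (0.85). Fuca2 was most like Rab21 (0.84), Lnpep (0.83) and Fam149a (0.83), and Fuk like Pgam2 (0.89), Tmem159 (0.80) and Crabp2 (0.79). Fpgt was most like Prkce (0.90), Actr3 (0.87) and Polr3f (0.87), Gmds like Coa4 (0.77), Bcas1os2 (0.77) and Emid1 (0.76). Tsta3 was most like Med25 (0.90), Vps52 (0.89) and Rxrb (0.89), and Slc35c1 like Fhl3 (0.82), Tpm2 (0.80) and Dmpk (0.80). These are the highest values of a search over 14589 genes and are not comparable with those among the 7.

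Neighbouring pathways were described by lists. Among 14 other enzymes that take apart glycoproteins and glycolipids, most of them lysosomal, 4 were called higher and 0 lower in 5xFAD mice on control diet against WT, beside 1.97% higher and 0.165% lower over all tested genes. Their median log2 fold change was 0.23. Man2b1, the lysosomal alpha-mannosidase, averaged 4914 ± 668 normalized counts in 5xFAD and 2307 ± 225 in WT mice, a log2 fold change of 1.09 ± 0.086 SE (limma, adjusted p = 8.39e-09). Hexa, a subunit of lysosomal hexosaminidase, stood at 0.82 ± 0.085 SE (adjusted p = 6.43e-07). Among the called genes was also Ctsa, chosen after its value was seen and encoding the protective protein of the lysosomal galactosidase and sialidase, at 0.63 ± 0.090 SE (adjusted p = 6.50e-05). The log2 fold changes of Man2b1, Hexa and Ctsa were larger than that of Fuca1, 0.44, a comparison of fitted values without a test of the difference. Neu1, the lysosomal sialidase, was at 0.015 (adjusted p = 0.967) and was likewise chosen after its value was seen. The summed level of the 14 ran from 32624 to 40122 normalized counts in 5xFAD mice on fucose, 33103 to 39142 in 5xFAD mice on control diet and 21828 to 25024 in WT mice. None of the 14 was called on fucose against control diet, and the smallest p was that of Engase, which unlike the lysosomal members of the list encodes a cytosolic enzyme that cuts N-glycans, at -0.20 ± 0.097 SE (limma, adjusted p = 0.822).

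Of 10 genes for fucosyltransferases, the enzymes that use GDP-fucose, 9 were tested (all but Fut1) and none was called in any comparison. Their median log2 fold change was -0.20 in 5xFAD against WT mice on control diet and 0.13 on fucose against control diet in 5xFAD mice. Fut9, which makes the Lewis X epitope in brain, averaged 2221 ± 271 normalized counts in 5xFAD and 2755 ± 609.9 in WT mice, a log2 fold change of -0.29 ± 0.11 SE (limma, adjusted p = 0.273). Fut8, the core fucosyltransferase of N-glycans, stood at -0.20 ± 0.080 SE (adjusted p = 0.292), and Fut11 at -0.24 ± 0.12 SE (adjusted p = 0.464). The smallest p on fucose against control diet was that of Fut7, a fucosyltransferase of selectin ligands, with 19.8 ± 5.23 normalized counts on fucose and 37.0 ± 18.6 on control diet, a log2 fold change of -0.72 ± 0.37 SE (adjusted p = 0.822).

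The 6 genes that lead to GDP-mannose, the starting point of the de novo route, were not called either. Their median log2 fold change was 0.025 in 5xFAD against WT mice on control diet, with Gmppa, a subunit of the GDP-mannose pyrophosphorylase complex, at 0.12 (adjusted p = 0.687), Pmm2, a phosphomannomutase, at 0.13 (adjusted p = 0.722) and Gpi1, a glucose-6-phosphate isomerase, at 0.056 (adjusted p = 0.821). The median was -0.097 on fucose against control diet, and Gmppb, the catalytic subunit of that complex, averaged 404 ± 104 normalized counts on fucose and 479 ± 81.6 on control diet (log2 fold change -0.28 ± 0.16 SE, limma, adjusted p = 0.822). Of 7 other Slc35 genes, listed as nucleotide sugar transporters, none was called, with medians of -0.0029 and 0.0039 in the same order of comparisons. In 5xFAD against WT mice on control diet, Slc35b4 stood at -0.12 (adjusted p = 0.566), the CMP-sialic acid transporter gene Slc35a1 at 0.098 (adjusted p = 0.764) and the UDP-galactose transporter gene Slc35a2 at -0.058 (adjusted p = 0.824). Slc35b4 had the smallest p on fucose against control diet, with a log2 fold change of 0.18 ± 0.072 SE (limma, adjusted p = 0.822).

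**Figure D4:**
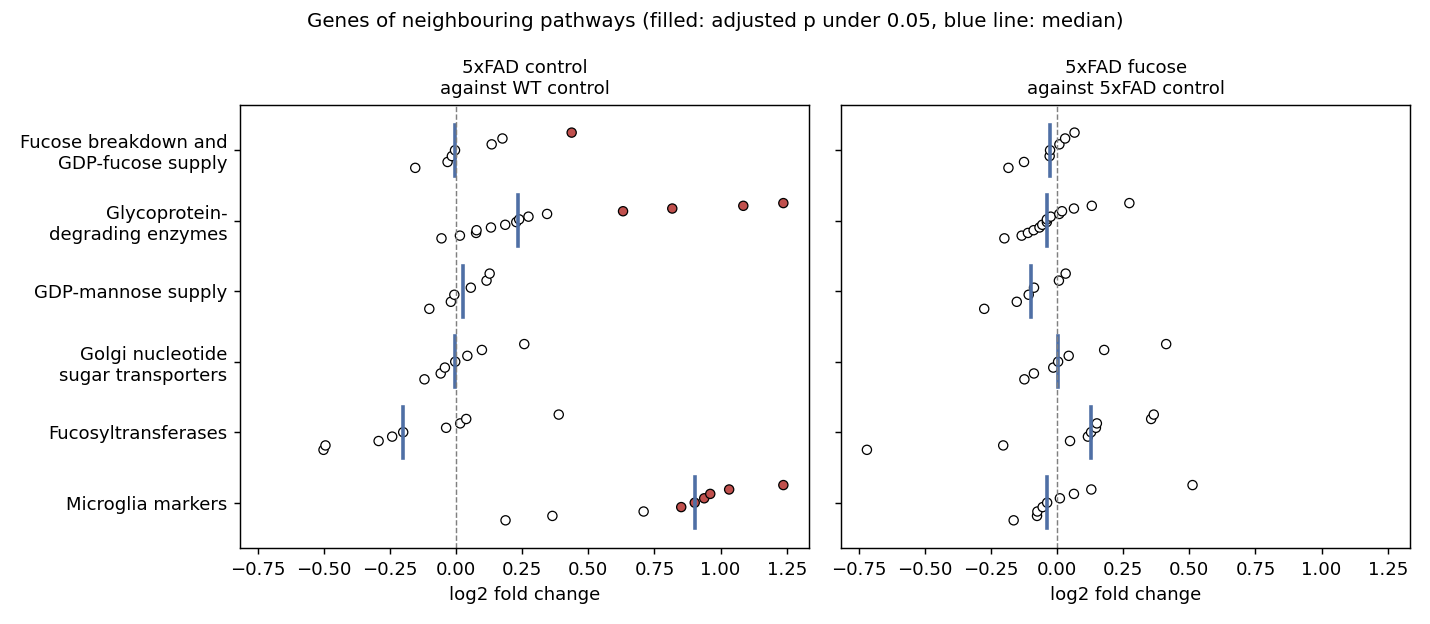
limma log2 fold changes of the 7 genes, of 4 lists of neighbouring pathways and of the microglia markers, in 5xFAD against WT mice on control diet (left) and on fucose against control diet in 5xFAD mice (right); filled points have an adjusted p under 0.05 and blue lines are list medians. On the left 1 of the 7 genes, 4 of 14 glycoprotein-degrading enzymes and 6 of 9 microglia markers are filled, and on the right no point is.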

How the data were processed

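The deposited table holds normalized counts (a signal): the authors divided each library's gene counts by its size factor. All values (100%) were whole multiples of 1 read within a tolerance of 0.001, so whole reads were recovered, and their median-of-ratios size factors equalled those of the table. Per the submitters' processing notes, the mm10 build was used with HISAT2 2.2.1 and Trimmomatic 0.39, and further with DESeq2 2.11.40.8 and featureCounts 2.0.3, with no roles given. Which annotation and strand setting served for counting is not given in the sources used here. Where a library has 0 reads of a gene, up to 3 are allowed by counting error, the only error covered. Among 45 replicate pairs a chi-square test of counts gave at least 15.6 per degree of freedom, so none differed by as little as sampling noise.

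Genes were tested with limma 3.58.1 in R 4.3.3 on log2(normalized count + 1). The fit took all 18 libraries together, with the trend and robust options and a pseudocount of 1. filterByExpr of edgeR 4.0.16 with a minimum count of 10 left 18808 genes. A gene is called at a Benjamini-Hochberg false discovery rate of 0.05 over these genes. Fold changes come from mean log2 values. edgeR and DESeq2 1.42.0 on the recovered reads and voom were alternatives. Of these steps only the limma test was tried on simulated data with known changes. The exact permutation p-values were planned with adjustment over the 7 genes and 3 comparisons together and are given unadjusted. Levels per kb use the merged exons of GENCODE M21, in which 4 of the 7 genes have the coordinates of the table. Itgam is in the table more than once and was left out of the microglia list.

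All 7 genes are named. Of each pathway list, up to 3 genes with the smallest p in 5xFAD against WT on control diet and the 1 with the smallest p on fucose against control diet are named. For likeness the 3 genes with the highest r are named, or 5 for a gene called in any comparison, without sex-linked and predicted genes. Not every gene chosen in this way is reported here. The genes and lists were chosen with earlier results of these data known.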

Additional observations from a re-analysis of the deposited data

How the results depend on the processing

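With 32 alternatives (18 of them leaving out 1 library), 1 of the 7 genes, Fuca1, was called in 5xFAD against WT on control diet each time and none in the other comparisons. For Fuca1 the log2 fold change ran from 0.41 to 0.48 in that comparison (adjusted p 0.000113 to 0.0105, highest without 5xFAD control replicate 1), from -0.22 to -0.14 on fucose against control diet (adjusted p 0.627 to 0.993, unadjusted p under 0.05 in 24 of 32) and from 0.23 to 0.30 in 5xFAD on fucose against WT (adjusted p 0.0683 to 0.335). Of 21 fold changes of the 7 genes, 14 kept their sign throughout. The other 7 had 37 values of the opposite sign, none over 0.071 in size and none with an adjusted p under 0.852, and the cause was not tested. Leaving out 1 library gave, in 5xFAD against WT on control diet, -0.063 to 0.024 for Fpgt and -0.061 to 0.071 for Tsta3. On fucose against control diet it gave -0.031 to 0.056 for Fpgt, -0.060 to 0.0080 for Fuk and -0.10 to 0.044 for Gmds. In 5xFAD on fucose against WT it gave -0.027 to 0.019 for Fpgt and -0.0018 to 0.062 for Slc35c1. In 5xFAD against WT on control diet, Tsta3 stood at 0.011 (TMM), 0.018 (upper quartile), 0.0050 (edgeR) and 0.016 (voom), and Fpgt at 0.0057 (upper quartile) and 0.0065 (edgeR). On fucose against control diet Fpgt stood at -0.0060 (edgeR) and -0.0025 (voom). In 5xFAD on fucose against WT it stood at 0.0011 (TMM), 0.010 (upper quartile), 0.00054 (edgeR) and 0.0068 (without the low-Xist libraries).

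Over all genes, the number called lower varied more. In 5xFAD against WT on control diet it was 31 and ran from 15 to 85 over the alternatives (85 by DESeq2, 18 without a filter on low counts), and in 5xFAD on fucose against WT it was 17 and ran from 5 to 75 (58 by DESeq2, 10 without a filter). Single libraries moved these counts by over 1.5 times. The first ran from 18 to 52, with such a move without WT replicate 4 or 6 or 5xFAD control replicate 1, 4, 5 or 6. The second took both its extremes from single libraries, 5 without 5xFAD fucose replicate 2 and 75 without 5xFAD fucose replicate 5, and moved as much without WT replicate 1, 2, 4, 5 or 6 or 5xFAD fucose replicate 1, 3 or 6. It was 38 without the low-Xist libraries and 30 with low Xist as a covariate. 1 gene was called lower on fucose against control diet without a filter. Whether the replicate numbers pair libraries is not settled by the labels. The 18 same-number correlations of deviations ran from -0.17 to 0.33, and 4 were over 0.1. In 5 of these 18 comparisons of a library with another group, the library of the same number correlated best. With the replicate number as a block, Fuca1 kept its call (adjusted p = 0.00394), no other of the 7 genes was called, and 52 and 33 genes were called lower in 5xFAD on control diet and on fucose against WT. The median log2 fold change of all tested genes lay within 0.0156 of 0 in each alternative. A covariate for low Xist was added after seeing the data.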

Other observations

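Choroid plexus markers, of which none was called in 5xFAD against WT mice on control diet, varied widely between libraries of each group. The summed level of Ttr, Folr1, Kl, Kcnj13, Clic6 and Otx2 ran from 23007 to 95018 normalized counts in 5xFAD mice on fucose, 27335 to 135655 in 5xFAD mice on control diet and 20321 to 125589 in WT mice. This sum was mostly Ttr, with a median of 43623 over the 18 libraries. The other markers had medians from 90.5 (Kcnj13) to 965 (Kl). On fucose against control diet in 5xFAD mice 0 of the 6 were called by limma, and their median log2 fold change was -0.27. Their relation to the 7 genes was not tested.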
